A study of Mus musculus with 32 samples.

Results

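The C/D box small nucleolar RNA (snoRNA) genes of mouse lung were examined as the 97 rows of a gene count table of 41687 rows whose gene symbol was Snord followed by a digit. They were compared across 3 ways of preparing the RNA for sequencing and between Bmal1 knockout (KO) and wild type (WT) mice. Of the 97 rows, 72 had 0 counts in all 32 libraries and 25 had at least 1 count. In libraries made without any selection of RNA, 4 rows (Snord17, Snord15b, Snord22 and Snord15a) held 95.4% of the counts of the 97. All 4 were lower in libraries made after pull-down of ribosomal RNA (rRNA) once libraries were scaled to most genes, but as a share of all counts Snord17 was higher there. After selection of polyadenylated RNA, 3 of the 4 had 0 to 2 counts in total. Between KO and WT, 0 of the 4 members tested after rRNA pull-down were called, and 0 of the 10 tested without selection. Of all rows, 3.46% and 2.17% were called there. None of the 97 could be tested after selection of polyadenylated RNA.

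C/D box snoRNAs are short nuclear RNAs named after a C box near the 5′ end and a D box near the 3′ end. With the proteins Nop56, Nop58, Snu13 and the methyltransferase Fbl they form particles, most of which pair with rRNA and direct methylation of the ribose at the paired base. A few, among them U8, U13 and U22, act in the cleavage or other modification of the rRNA precursor. Most are cut out of introns of host genes, many of which code for ribosomal proteins, and they carry no poly(A) tail.

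The sequences below show the 5 longest members, which carried most of the counts, and Snord37, the shortest member and one without counts. They are given 5′ to 3′ in DNA letters from GENCODE M21 transcripts on GRCm38. Capitals mark a C box (TGATGA, searched in the first 30 bases) and a D box (CTGA, searched in the last 20 bases), on the strand of the RNA only.
Snord17: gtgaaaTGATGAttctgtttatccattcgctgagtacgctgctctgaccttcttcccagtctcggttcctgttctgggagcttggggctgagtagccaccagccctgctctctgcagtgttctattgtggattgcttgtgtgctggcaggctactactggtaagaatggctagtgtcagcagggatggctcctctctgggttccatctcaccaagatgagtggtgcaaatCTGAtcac
Snord15b: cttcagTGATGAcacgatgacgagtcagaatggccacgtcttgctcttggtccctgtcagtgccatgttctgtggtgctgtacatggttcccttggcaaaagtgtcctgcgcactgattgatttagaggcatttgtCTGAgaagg
Snord15a: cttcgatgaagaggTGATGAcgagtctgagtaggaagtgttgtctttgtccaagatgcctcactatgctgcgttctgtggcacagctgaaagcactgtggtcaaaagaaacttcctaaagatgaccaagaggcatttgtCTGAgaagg
Snord22: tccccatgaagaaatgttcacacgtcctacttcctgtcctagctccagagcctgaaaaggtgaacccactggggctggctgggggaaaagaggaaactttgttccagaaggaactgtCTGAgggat
Snord118: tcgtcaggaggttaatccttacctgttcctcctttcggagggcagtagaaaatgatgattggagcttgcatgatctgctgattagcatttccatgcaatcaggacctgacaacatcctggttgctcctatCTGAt
Snord37: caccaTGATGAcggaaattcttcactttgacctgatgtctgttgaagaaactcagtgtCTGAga

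Snord17 lies at chr2:144265979-144266216 on the minus strand, within an intron of Snx5. Snord15b (chr7:99479563-99479707) and Snord15a (chr7:99482785-99482932), both on the minus strand, lie within the ribosomal protein gene Rps3, Snord15a in an intron and Snord15b over an annotated exon, and 65.6% of their 154 aligned positions are identical. Snord22 (chr19:8725866-8725991, plus strand) lies over an annotated exon of the noncoding host Snhg1. Snord118 (chr11:69073427-69073561, plus strand) has no host in the annotation. Snord37 lies at chr10:81178950-81179013 on the plus strand. The C box letters were present in 71 of the 97 members (73.2%) and the D box letters in 95 (97.9%), while 0 and 5 of the 41 H/ACA box (Snora) genes held them. Snord22 and Snord118 lacked the exact C box letters in this window, which says nothing of the boxes these RNAs use.

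The libraries came from the lungs of 12 adult mice aged 8 to 18 weeks and bred in house, 6 WT mice given as C57b/6 and 6 Bmal1 knockouts whose allele, strain and treatment the labels do not specify. All were labelled female. Arntl encodes Bmal1, which drives transcription in the circadian clock. Each mouse gave a RiboZero (rRNA pull-down) and a PolyA library (n = 6 in either genotype), and NoSelect libraries, made with neither step, came from the mice numbered 3 to 6 alone (n = 4 in either genotype), each from 6 combined preparations. A WT and a KO mouse of one number are separate animals.

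Total counts ran from 11638590 to 115059730 per library. In NoSelect, 67.8% to 71.5% of the counts lay in Lars2 and a Gm42418 transcript, 2 rows known for collecting rRNA reads, against at most 0.158% elsewhere. Levels are therefore given as CPM (counts scaled to a common library size) with TMM factors, an edgeR normalization that takes most genes as equal between libraries. Arntl, the targeted gene, lay at 15.05 to 18.6 CPM in RiboZero KO and 26.8 to 33.6 in RiboZero WT, at 16.5 to 18.5 in NoSelect KO and 27.1 to 29.2 in NoSelect WT, and at 17.3 to 21.1 in PolyA KO and 19.8 to 23.9 in PolyA WT. KO mouse 6 had 105 to 188.5 CPM of 4 Y-linked genes and at most 0.389 CPM of Xist in its 3 libraries, against its label, and its NoSelect library is labelled liver. That library held 23573 CPM of 8 lung markers, above 16377 to 22005 in the other 7 NoSelect libraries. Its 8 liver markers, with 3 of them at 0, summed to 5.42 CPM, just above 2.396 to 5.255 in the other 7. In bulk tissue, fewer cells of a type and less RNA per cell cannot be told apart.

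The mice numbered 5 of both genotypes stood apart for these genes. Their summed C/D box level was 49.8 CPM (WT) and 57.9 CPM (KO) in RiboZero, where the other mice had 76.3 to 111.3, and 244 and 277 CPM in NoSelect, where the other mice had 467 to 591.5. They were the lowest in 4 of 4 groups, at 0.461 to 0.600 of the median of the other mice of the group. The plot of summed levels by mouse shows both mice below the rest in both preparations, and the main results are also given without them.

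**Figure D1:**
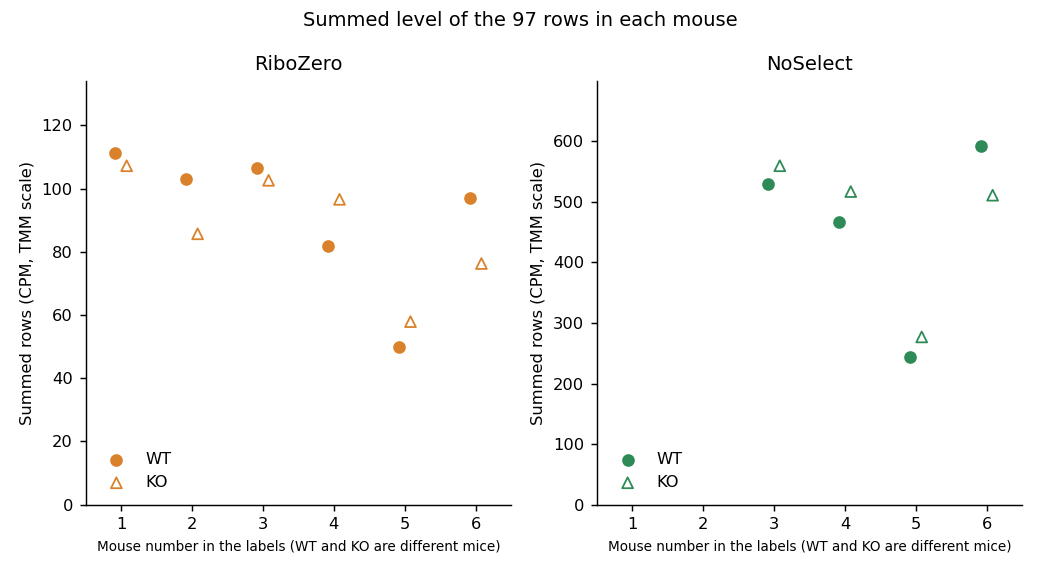
Summed CPM (TMM scale) of the 97 C/D box snoRNA rows in each RiboZero (left) and NoSelect (right) library, by mouse number; filled circles are WT and open triangles KO, 1 point per library. The mice numbered 5 have 49.8 and 57.9 CPM in RiboZero and 244 and 277 CPM in NoSelect.

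Some other noncoding RNAs were also low in the mice numbered 5, and some lay near the other mice. Summed small nuclear RNA genes were at 0.477 to 0.560 of the other mice, and the vault RNA gene Vaultrc5 at 0.335 to 0.380, both lowest in 4 of 4 groups. H/ACA snoRNA genes were at 0.622 to 0.880, also lowest in 4 of 4. The summed Scarna genes were at 0.874 to 1.03 and lowest in 2 of 4 groups. Rn7sk, an abundant nuclear RNA of 331 bases, was at 0.971 to 1.07 and lowest in 1 of 4 groups. Rpph1, the RNase P RNA, was at 0.898 to 1.02, Rmrp at 0.807 to 0.969 and Rn7s2 at 0.819 to 0.931, each lowest in 3 of 4. Among the members, Snord17, Snord15b, Snord22 and Snord15a were lowest in the mouse numbered 5 in 4 of 4 groups, with ratios from 0.354 (Snord22, RiboZero WT) to 0.680 (Snord15a, RiboZero KO). Snord118 and Snord21 were lowest there in 3 of 4 groups and Snord13, Snord16a and Snord8 in 2 of 4. The part of these differences in the results below was not tested, beyond leaving out both mice.

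Detected members were mostly long ones. With at least 10 counts in every NoSelect library taken as detected, 0 of the 59 members of 64 to 89 bases were detected, 2 of the 27 of 90 to 99 bases (Snord21 and Snord16a), 3 of the next 6 by length (Snord13, Snord8 and Snord89), and 5 of the 5 of 126 to 238 bases. Members of at least 104 bases, 11 in number, held 114511 of the 116038 counts in NoSelect. Among these 11, Snord90 alone was at 0 in all libraries. In the annotation the members run from 64 to 238 bases with a median of 84.

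**Figure D2:**
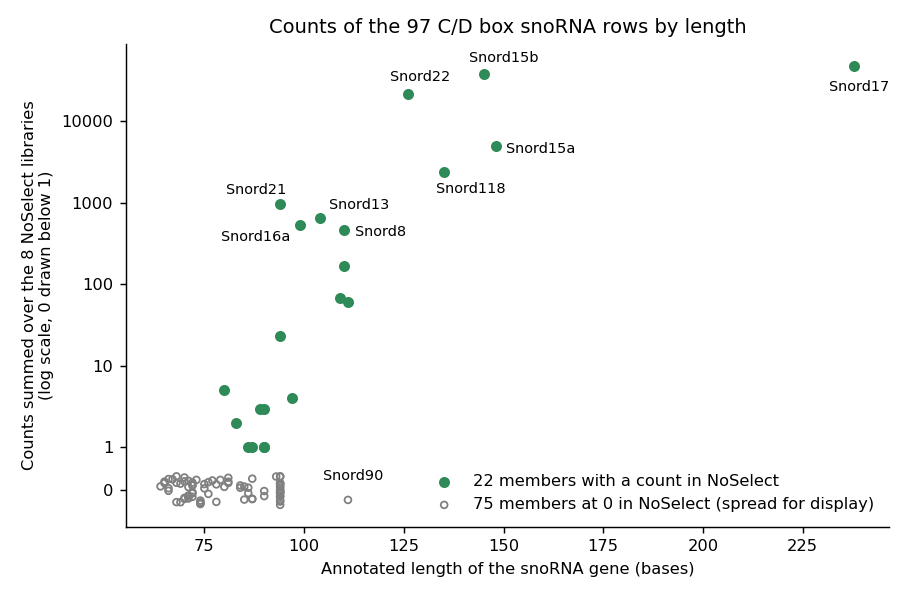
Counts summed over the 8 NoSelect libraries (log scale, with 0 drawn below 1) against the annotated length in bases, 1 point for each of the 97 rows. Rows under 90 bases have at most 5 counts, and the 5 rows of 126 bases or more have 2387 to 47148.

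The mean number of detected members per library was 10.6 ± 0.916 (SD, n = 8) in NoSelect, 4.92 ± 1.08 (n = 12) in RiboZero and 0 in PolyA. Any count at all was found for 15.0 ± 1.51 members per library in NoSelect, 10.5 ± 1.45 in RiboZero and 2.50 ± 1.31 in PolyA. The libraries differ in depth: thinned to 11638590 counts each, NoSelect had 7.25 detected members per library. A member at 0 over the 8 NoSelect libraries may still have had up to 3 counts, or 0.0120 CPM, which covers counting error only.

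The undetected rows include whole groups. Snord1a, Snord1b and Snord1c, which share the host 1810032O08Rik, had 0 counts, as did Snord50a and Snord50b in the host Snhg5. All 17 members of the Snord116 group, from the imprinted Prader-Willi region and known mainly from brain, had 0 counts. Of the 3 members in Gas5, a host of many guides, Snord47 had 1 count and the others 0, and of the 4 in the ribosomal protein gene Rpl13a, Snord32a had 2 and Snord35a 1. Of the 72 rows at 0, 46 shared over 20% of their words of 31 bases with transcripts of other genes, in 44 cases of the host itself, and 26 shared none. The Snord116 rows shared 67.2% to 100% of their words with transcripts of the host Snhg14 and of other genes, among them Gm22285. The part of sharing in these zeros was not tested. Among rows with counts, Snord15b, Snord22, Snord21 and Snord16a share 100% of their words with Rps3, Snhg1, Rpl5 and Rpl4 transcripts, and the split of reads between them and the host is uncertain. Snord118 shares 32.4% with Gm24208. Snord17, Snord15a, Snord13, Snord8 and Snord89 share no word with another gene. By comparison, 28 of the 41 H/ACA genes, which have a median length of 132 bases, were detected in every NoSelect library, and 0 were at 0 in every library.

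By CPM, which is not corrected for length, the highest row in NoSelect was Snord17, a guide for large-subunit rRNA. Its level was 227, 193, 105 and 234 CPM in WT mice 3 to 6, and 229.5, 204, 114 and 197 CPM in KO mice 3 to 6. The lowest value of each genotype is that of the mouse numbered 5, and the genotypes overlapped. Snord15b, a U15 guide for large-subunit rRNA, had 168, 144, 80.5 and 173.5 CPM in WT and 184, 160, 97.4 and 176 CPM in KO. Snord22 (U22), needed for small-subunit rRNA processing, had 88.7, 89.5, 36.8 and 128 CPM in WT and 98.9, 108, 43.2 and 91.1 CPM in KO. In each of these rows the mouse numbered 5 was the lowest of its genotype.

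The next rows had lower CPM. Snord15a, the other U15 guide, had 9.95 to 26.9 CPM over the 8 NoSelect libraries (median 21.2). Snord118 (U8), which acts in large-subunit rRNA processing, had 3.92 to 15.7 CPM (median 9.85). Snord21, a guide for large-subunit rRNA, had 2.43 to 5.34 CPM, Snord13 (U13), a guide for acetylation of small-subunit rRNA, 1.93 to 3.01, and Snord16a, a guide for small-subunit rRNA, 1.16 to 2.85. Snord8, a guide for U6 small nuclear RNA, had 1.12 to 2.48 CPM and Snord89 had 0.342 to 1.05. Snord23, Snord67 and Snord83b held 67, 61 and 23 counts over the 8 libraries, and the remaining rows at most 5.

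**Figure D3:**
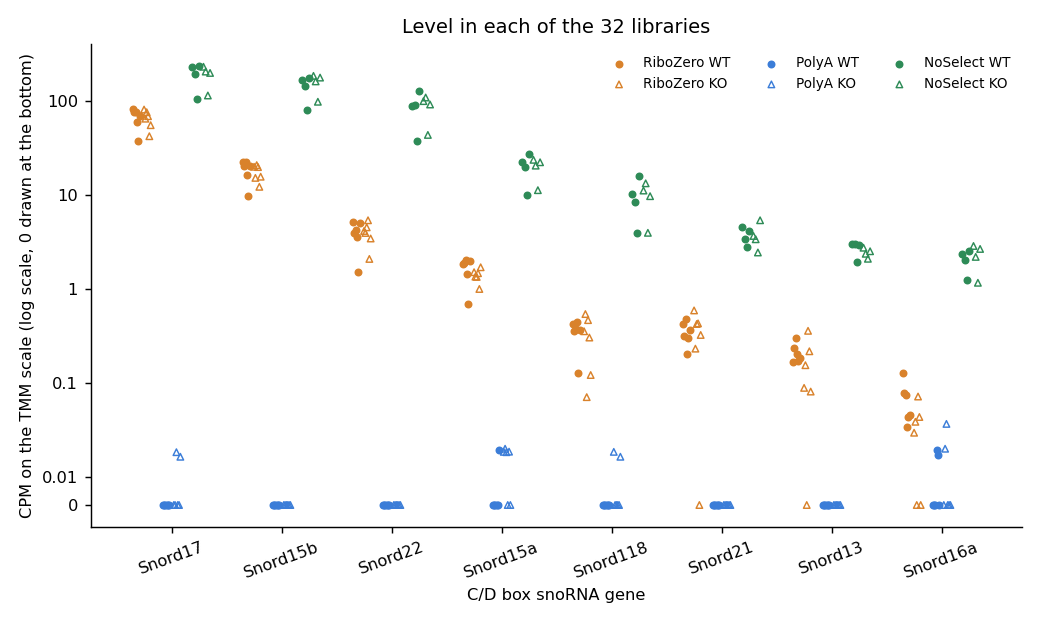
CPM (TMM scale, log axis, 0 drawn at the bottom) of the 8 highest rows in each of the 32 libraries; colours are preparations, filled circles WT and open triangles KO. NoSelect lies above RiboZero for every gene shown, and PolyA lies at or near 0.

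Per kilobase of length the order changed. In NoSelect, Snord15b had 1020 ± 266 CPM per kb (SD, n = 8), Snord17 790 ± 214.5 and Snord22 679 ± 245. Snord15b was above Snord17 in 8 of 8 libraries and Snord17 above Snord22 in 6 of 8, so Snord17 and Snord22 were not in one order throughout. Snord15a followed at 132 ± 40.1 CPM per kb and Snord118 at 70.4 ± 30.5. In RiboZero, Snord17 had 274.5 ± 60.8 CPM per kb (n = 12) and was above Snord15b, at 123 ± 27.9, in 12 of 12 libraries.

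On the TMM scale these genes had lower levels in RiboZero than in NoSelect. NoSelect also differs in RNA input (15 ng against 200 ng) and in its 6 combined preparations per mouse. These differences cannot be told apart from the pull-down, nor from the selection of polyadenylated RNA where PolyA is set against NoSelect. Snord17 had 37.3 to 80.7 CPM over the 12 RiboZero libraries (median 68.6) against 105 to 234 in NoSelect, and Snord15b 9.65 to 22.4 (median 19.7) against 80.5 to 184, with no overlap. Snord22 had 1.49 to 5.34 CPM in RiboZero, Snord15a 0.683 to 2.00 and Snord118 0.0702 to 0.537, all below the lowest NoSelect library. By the quasi-likelihood test of edgeR, with p-values adjusted after Benjamini and Hochberg, 7 members could be tested and 7 were lower in RiboZero. A call needed an adjusted p under 0.05 and a fitted log2 difference of 1 or more either way. Among all 16661 rows tested, 3.79% were called and 2.37% were called lower, with a median log2 fold change of 0.03 over all rows. Only Snord17, Snord15b, Snord22 and Snord15a had at least 10 counts in every library of both preparations. The other 3 passed the filter on low counts through NoSelect, where they are high, so that their calls add nothing to the count.

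The size of the difference was not the same for each member. Snord17 had the smallest of the 7, with a log2 fold change of -1.53 (SE 0.166, adjusted p 2.16e-07 in edgeR). Snord15b had -3.06 (SE 0.167, adjusted p 6.28e-12 in edgeR), Snord15a -3.69 (SE 0.191) and Snord22 -4.46 (SE 0.234). The 95% interval of Snord17, -1.87 to -1.18, did not meet those of Snord15b, Snord15a and Snord22, the other rows well counted in both preparations. Of the members read mainly through NoSelect, Snord21 had -3.42, Snord13 -3.78 and Snord118 -4.81. Without the mice numbered 5 the log2 difference was -1.61 for Snord17, -3.13 for Snord15b and -4.55 for Snord22, and with the mouse as a block -1.63, -3.11 and -4.53.

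**Figure D4:**
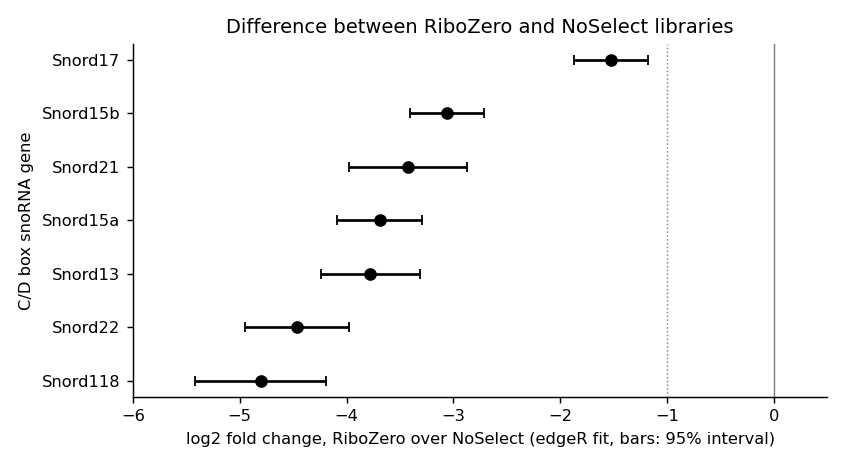
Fitted log2 fold change of RiboZero over NoSelect for the 7 members tested (edgeR, 12 RiboZero and 8 NoSelect libraries); bars are 95% intervals, the solid line marks no difference and the dotted line the minimum fold. Snord17 lies at -1.53 and the other 6 between -4.81 and -3.06.

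Pooled over libraries, the ratio of CPM in NoSelect to RiboZero was 2.88 for Snord17 (95% interval 2.84 to 2.93, from counts alone), 8.39 for Snord15b (8.15 to 8.63), 12.96 for Snord15a (11.8 to 14.3) and 22.1 for Snord22 (20.9 to 23.5). It was 28.1 for Snord118 (23.0 to 34.5), 13.9 for Snord13 (10.5 to 18.6) and 11.0 for Snord21 (9.002 to 13.6). Among rows that did not pass the filter on low counts in this fit, it was 4.76 for Snord89 (3.39 to 6.82), 32.7 for Snord8 (20.2 to 56.6) and 43.3 for Snord16a (26.01 to 77.9). With 1 to 6 RiboZero counts, it was 12.3 for Snord67 (5.34 to 34.9), 27.9 for Snord83b (4.53 to 1148) and 81.2 for Snord23 (14.1 to 3253). Of the 4 rows well counted in both preparations, Snord17 has 238 bases, Snord15a 148, Snord15b 145 and Snord22 126, and the part of length in the ratios was not tested. The intervals cover counting error only and leave out the spread between mice.

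These folds rest on the TMM scale. As a share of all deposited counts, the 97 members held 0.0164% ± 0.0046 (SD, n = 8) in NoSelect and 0.0114% ± 0.00257 (n = 12) in RiboZero, a ratio of 1.44. Snord17 then lies lower in NoSelect, at 0.00668% against 0.00829% in RiboZero, and its direction reverses, while Snord15b, Snord22, Snord15a, Snord118, Snord21 and Snord13 stay higher in NoSelect, by 2.33-fold to 8.13-fold. On that scale the median row is shifted by 1.86 on the log2 scale towards RiboZero. Without Lars2 and the Gm42418 transcript in the total the shift is 0.17, the members hold 0.0532% ± 0.0145 in NoSelect, and Snord17 is 2.61-fold higher there.

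The make-up of the members differed between the preparations, and shares of the member counts do not depend on the scaling. Snord17 took 72.9% ± 1.51 (SD, n = 12, 70.8% to 75.1%) of the member counts in RiboZero and 40.9% ± 1.58 (n = 8, 38.6% to 42.9%) in NoSelect. It was higher in RiboZero in 8 of the 8 mice with both libraries, by 28.8 to 33.3 percentage points, the mice numbered 5 included. Snord22 took 4.26% ± 0.683 in RiboZero and 18.1% ± 2.35 in NoSelect, and Snord15b 19.9% ± 1.01 and 32.3% ± 1.93. The U15 pair, both from Rps3, also differed: the ratio of Snord15b to Snord15a counts was 12.03 ± 1.78 in RiboZero (9.19 to 15.5) and 7.72 ± 0.664 in NoSelect (6.45 to 8.72). It was higher in RiboZero in 8 of 8 mice.

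After selection of polyadenylated RNA the members were nearly absent from the counts. The 12 PolyA libraries held 0 to 6 member counts each and 36 in all, of totals of 29924271 to 41548759 per library. The mean summed level was 0.0549 ± 0.0301 CPM (SD, n = 12), against 89.7 ± 19.9 in RiboZero (n = 12) and 462 ± 130 in NoSelect (n = 8). Of the 36 counts, 10 belonged to Snord89, and Snord15a and Snord16a had 5 each. Snord15b, Snord22, Snord21 and Snord13 had 0 in PolyA.

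Against the floor of 3 counts over the 12 libraries, Snord15b was at least 32615-fold lower in PolyA than in NoSelect, Snord22 at least 18791-fold, Snord21 at least 830-fold and Snord13 at least 562-fold. Snord15b, Snord22 and Snord21 share 100% of their words with host transcripts, so their folds hold only for the reads as assigned. Snord17, with 2 PolyA counts, had a NoSelect to PolyA ratio of 61969 (95% counting interval 17154 to 511715). Snord15a had a ratio of 2582 (1106 to 7957) and Snord118 one of 3137 (868 to 25921). The smallest ratio among rows with over 100 NoSelect counts was that of Snord89, 44.4 (23.6 to 94.3). Snord7 had 4 counts in each of the 2 preparations, with a ratio of 2.63 (0.490 to 14.1).

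By the same edgeR test, 9 members were tested between PolyA and NoSelect and 9 were lower in PolyA, where 24.2% of 17554 rows were called and 15.0% were called lower. Between PolyA and RiboZero, 4 were tested and 4 were lower, where 21.8% of 17228 rows were called and 15.3% were called lower. All of them passed the filter on low counts through the other preparation and had to differ, so these counts carry no weight of their own. Each pair of these 3 comparisons has a preparation in common, and so shares libraries. For Snord22, PolyA against RiboZero gave at least 848-fold, and for Snord15b at least 3890-fold, both for the reads as assigned.

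The hosts Rps3, Snx5 and Chd8 stayed well counted in PolyA. Rps3, the host of the U15 pair, had 324 ± 8.80 CPM in PolyA (SD, n = 12), 199 ± 10.8 in RiboZero (n = 12) and 157 ± 3.63 in NoSelect (n = 8). Snx5, the host of Snord17, had 53.3 ± 4.38, 47.6 ± 3.90 and 40.3 ± 3.13 CPM in the same order. Chd8, the host of Snord8, was lower in PolyA, at 63.6 ± 4.83 CPM against 119.5 ± 4.94 in RiboZero and 120.5 ± 3.77 in NoSelect. For these hosts, each snoRNA had at most 5 counts over the 12 PolyA libraries. The hosts Rpl5, Rpl4, Nop53 and Rpl3 had higher means in PolyA than in NoSelect. Ckap5, the host of Snord67, had 30.1 ± 1.64 CPM in PolyA against 66.6 ± 1.48 in NoSelect. Gm15832, the host of Snord89, had only 2.25 ± 0.284 CPM in PolyA and 2.47 ± 0.334 in NoSelect. No values are given for Snhg1, the host of Snord22.

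Between KO and WT, the summed members lay at 57.9 to 107 CPM in RiboZero KO and 49.8 to 111.3 in RiboZero WT, with means of 87.7 ± 18.5 and 91.6 ± 22.9 (SD, n = 6 each). In NoSelect they lay at 277 to 560 CPM in KO and 244 to 591.5 in WT, with means of 466.2 ± 128 and 458 ± 151 (n = 4 each). In PolyA the KO libraries held 20 counts and the WT libraries 16. The genotypes overlapped in each preparation. Without the mice numbered 5, 0 of 5 members tested were called in RiboZero, where 276 of all rows were called. In NoSelect it was 0 of 10, where only 59 of all rows were called, so that 0 members there says little. In RiboZero 1 member then had an unadjusted p under 0.05, and the share of all rows at that p is not given for this fit.

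By the edgeR test at an adjusted p under 0.05, 0 of the 4 members tested in RiboZero were called (3.46% of 16710 rows were) and 0 of the 10 tested in NoSelect (2.17% of 17124 rows). None could be tested in PolyA, where 4.03% of 17211 rows were called. At an unadjusted p under 0.05 the count was 0 as well, where 16.4% of rows passed in RiboZero, 15.7% in NoSelect and 18.0% in PolyA, and DESeq2 called 0. In 4 alternative fits that count was 1. The largest difference in RiboZero was that of Snord15a, -0.24 on the log2 scale in KO (SE 0.228, 95% interval -0.73 to 0.26), followed by Snord15b with -0.11 and Snord17 with -0.05. The Snord15a value was -0.40 without the library of WT mouse 5 and -0.31 without both mice numbered 5. The largest in NoSelect was that of Snord13, -0.17 (SE 0.168, interval -0.56 to 0.21), followed by Snord15b with 0.12 and Snord16a with 0.11. The Snord13 value was -0.31 without WT mouse 5, -0.11 without KO mouse 5, -0.25 without both and -1.09 after thinning, uncalled in each. The lowest adjusted p was 0.670 in RiboZero and 0.680 in NoSelect.

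**Figure D5:**
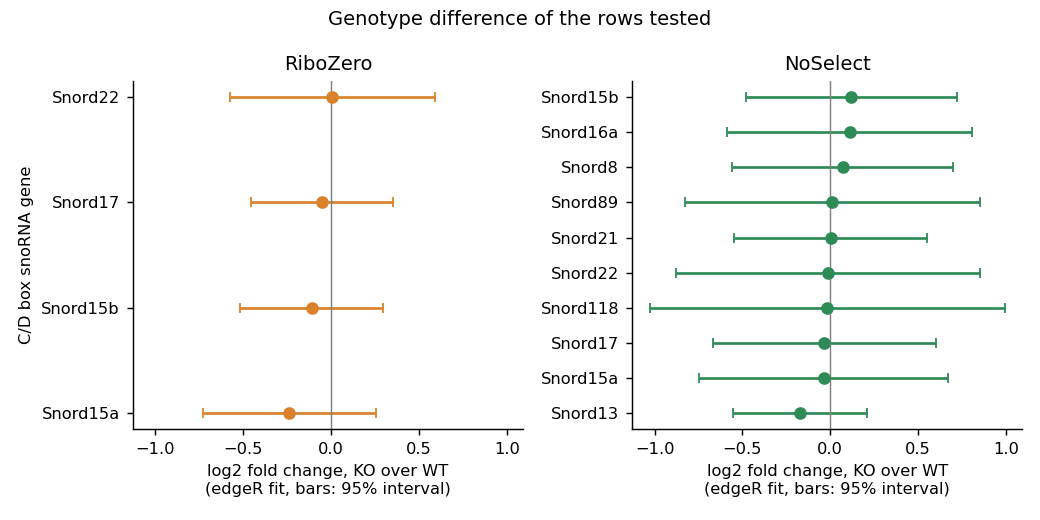
Fitted log2 fold change of KO over WT for the 4 members tested in RiboZero (left, n = 6 per genotype) and the 10 tested in NoSelect (right, n = 4 per genotype); bars are 95% intervals from the edgeR fit. Every interval spans 0, and that of Snord118 in NoSelect runs from -1.03 to 0.99.

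These intervals set what could be seen. For Snord17 the 95% interval was -0.45 to 0.35 in RiboZero and -0.67 to 0.60 in NoSelect, and for Snord118 it was -1.03 to 0.99 in NoSelect, so that a log2 change of nearly 1 either way is within the interval of the latter. The interaction of genotype and preparation was called for 0 of 9 members between PolyA and NoSelect, 0 of 9 between RiboZero and NoSelect and 0 of 6 between PolyA and RiboZero, and for 0% of all rows. At an unadjusted p under 0.05 the count of members was 0, where 2.24%, 1.39% and 1.82% of all rows passed. These fits took no account of the mouse, though the same mice gave both preparations, and so may miss differences. With the mouse as a block, 0 of 10, 0 of 10 and 0 of 6 members were called, and 1 of all rows in each. With PolyA in the fit these tests say little, since Snord15b, Snord22 and Snord21 are at 0 in PolyA. Leaving out KO mouse 6 left the counts at 0.

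The proteins that build and serve the C/D box particles were read from a list of 24 genes: the core proteins, their assembly factors, transport and trimming factors, and proteins of the U3 particle. All 24 were tested in every comparison. Between KO and WT, 0 of 24 were called in RiboZero and in NoSelect, and 1 of 24 in PolyA, where 3.46%, 2.17% and 4.03% of all rows were, so the count in PolyA is near that of all rows. The one was Fbl, the methyltransferase, with 21.7 to 24.9 CPM in KO (median 24.0) and 24.98 to 27.9 in WT (median 26.7), without overlap. Its log2 fold change in PolyA was -0.22 (SE 0.0528, adjusted p 0.0382 in edgeR). The fit for RiboZero gave -0.14 (adjusted p 0.459 in edgeR), and that for NoSelect -0.10 (adjusted p 0.470 in edgeR). The call was lost in 16 of 22 alternative fits, with an adjusted p of up to 0.121, among them each fit without 1 PolyA library other than those of WT mouse 1 and KO mouse 1, and the interaction with preparation was not called. Nop56 and Nop58, the paired scaffold proteins, had log2 fold changes of -0.12 and -0.14 in PolyA, neither called.

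Between preparations 2 of these protein-coding genes were called, few beside the shares of all rows (24.2% for PolyA against NoSelect, 21.8% for PolyA against RiboZero and 3.79% for RiboZero against NoSelect). By the adjusted p alone, 18, 15 and 16 of 24 were higher and 4, 6 and 1 lower, in the same order. The share of all rows passing the adjusted p alone is not given here, so these counts say nothing particular of the list. Their log2 fold changes ran from -0.35 to 0.43 (median 0.17) for RiboZero against NoSelect, where 0 of 24 passed both the adjusted p and the minimum fold. For PolyA against NoSelect they ran from -0.65 to 1.22 (median 0.46), with 1 called, Ruvbl2, an ATPase of the assembly machinery, at 1.22 (SE 0.105). For PolyA against RiboZero they ran from -0.67 to 1.06 (median 0.23), with 1 called, Fbl at 1.06 (SE 0.0472), which falls to 1.00, just under the minimum fold, without the RiboZero library of KO mouse 3.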

How the data were processed

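Mouse lung RNA was sequenced as RiboZero, PolyA and NoSelect libraries, from 200 ng of RNA (15 ng for NoSelect) and with 11 PCR cycles, as the labels' protocols say. Estimated counts for 32 libraries were deposited by the authors in 1 table, where 12.8% of values were not whole. The submitters' processing notes name Salmon 1.4.0, UMI-tools 1.1.1 and GRCm38. The index, the annotation, the strand setting and whether duplicates were removed by molecular identifier are not given in the sources used here.

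Identifiers were matched to symbols for 37649 of 41687 rows. Lengths, hosts and sequences came from GENCODE M21, whether or not the authors used it. Counts were rounded and tested in R 4.3.3 with edgeR 4.0.16 (TMM, filterByExpr, glmQLFit, glmQLFTest), with Benjamini-Hochberg adjustment over all rows tested. Preparations were compared with genotype as a covariate and KO with WT within a preparation. The fits were tested on simulated counts. Each library was 1 replicate, and p-values between genotypes measure the spread between mice.

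Libraries with one genotype and number were taken as one mouse, from the data and not from a statement in the labels: over 14367 rows their deviations from the group means correlated at 0.51 to 0.78, and each matched its own mouse best in 12 of 12, 8 of 8 and 8 of 8 cases. Tried as alternatives were DESeq2 1.42.0, factors by median of ratios, other filters, removal of Lars2 and the Gm42418 transcript, thinning, mice 3 to 6, leaving out KO mouse 6 or each library, and the replicate block. Leaving out the mice numbered 5 was added after seeing the data. Members and lists were chosen with earlier results of these data known. Named members are the 8 highest by mean CPM in each preparation and by CPM per kb in NoSelect, the 3 highest and lowest fold changes among tested members of average log2 CPM 1 or more, those called for genotype or otherwise the 3 of lowest p, Snord118, Snord13 and the imprinted groups. Snord37, Snord90, other rows with few counts and called genes of the protein list were named after their values were seen. Some items are not reported here.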

Additional observations from a re-analysis of the deposited data

Results flagged for a closer look

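Of 44 groups of libraries examined for a single sample far from the rest (the summed members and the 10 highest rows, in each RiboZero and NoSelect group), 2 held one, and chance gives about 1 in 20 groups. Snord118 in RiboZero WT was at 0.128 CPM in mouse 5, where the nearest of the other 5 mice had 0.354. Snord13 in NoSelect WT was at 1.93 CPM in mouse 5, where the nearest of the other 3 had 2.92. Both samples are the WT mouse numbered 5, whose low summed level the report describes.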

How the results depend on the processing

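Each of the 7 members tested between RiboZero and NoSelect, the 9 between PolyA and NoSelect and the 4 between PolyA and RiboZero kept its direction and its call in every fit that could test it, 594 in all. Fits with PolyA add nothing, as the members passed the filter through the other preparation. The same holds for Snord118, Snord21 and Snord13 between RiboZero and NoSelect. Every fit scaled libraries to most genes, and none used the share of all counts, where the direction of Snord17 reverses. The number of members called moved with the filter and the tool, and each call was of a lower level. Without a filter it was 15 of 23 tested for PolyA against NoSelect, where 7039 of all rows were called. For RiboZero against NoSelect it was then 13 of 25 (1100 rows), and for PolyA against RiboZero 11 of 18 (6552 rows). With DESeq2 it was 13 of 25 for RiboZero against NoSelect (942 rows) and 10 of 18 for PolyA against RiboZero (5619 rows). Thinning gave 5 of 5 for PolyA against NoSelect (3546 rows). A minimum of 10 counts in every library gave 4 of 4 for RiboZero against NoSelect (301 rows). No member passes that minimum where PolyA is in the fit. Leaving out each library gave 9 to 9, 7 to 9 and 4 to 4.

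For genotype and its interaction 133 of 133 alternative counts were 0. The interaction counts among them carry little weight, since their main fits called 0 of all rows. With DESeq2 the interaction was called for 15 of all rows (PolyA and NoSelect), 9 (RiboZero and NoSelect) and 12 (PolyA and RiboZero). For genotype in NoSelect, all rows called fell to 59 without the mice numbered 5. At an unadjusted p under 0.05, 1 member passed for genotype in NoSelect after thinning and with the replicate block, and in RiboZero without a filter and without the mice numbered 5, and 1 for the interaction of RiboZero and NoSelect with DESeq2 and without a filter. Of 116 gene values for genotype 111 kept their direction and 0 passed the threshold. With each library left out in turn, Snord13 in NoSelect ran from -0.31 to -0.11, Snord15a in RiboZero from -0.40 to -0.16, Snord15b in NoSelect ran from -0.07393 (without WT mouse 5) to 0.2855, and Snord16a in NoSelect from -0.06739 (without WT mouse 5) to 0.3162, with -0.03042 without KO mouse 3. Snord17 in RiboZero ran from -0.1743 to 0.04342 (without KO mouse 5), with 0.01006 without WT mouse 1. With the mouse as a replicate block, RiboZero against NoSelect gave 10 of 10 members tested (683 of all rows). PolyA against NoSelect gave 9 of 9 (4220 rows) and PolyA against RiboZero 4 of 4 (3792 rows). Equal numbers in WT and KO did not pair the mice (correlations of -0.22 to 0.31, best with the own number in 1, 2 and 0 cases), and the replicate block by number left 0 members called.

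The share of counts held by the members in NoSelect was 0.0532% without Lars2 and the Gm42418 transcript, and 0.0156% to 0.0175% with a library left out. In RiboZero that range was 0.0111% to 0.0118%, in PolyA 7.85e-06% to 9.37e-06%. Detected members per NoSelect library were 7.25 after thinning, 9.12 after thinning without the 2 rows, 15.0 at 1 count and 8.25 at 50 counts. RiboZero had 10.5 at 1 count and 3 at 50, and PolyA 2.50 at 1 count. With a library left out the range was 10.4 to 10.7 in NoSelect, 4.73 to 5 in RiboZero and 0 to 0 in PolyA. Depth limits what can be said of the 72 rows at 0.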
